A study of Mus musculus with 32 samples.

Results

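Nuclease-free water, given to newborn C57BL/6 mouse pups as the solvent of control oligonucleotides, was compared with no injection in the lung at postnatal day 14. The 4 water libraries came from pups injected into the peritoneum with 10 µl of water per g of body weight on postnatal days 1 and 3, and the 4 untreated libraries from pups of the same strain and age. These 8 of the 32 libraries in the series were taken by their treatment label. The other 12 day 14 libraries entered the fit, where all 20 share an estimate of the spread, and are given as levels beside the comparison. They came from 2 groups that received a scrambled oligonucleotide with locked nucleic acids in this water (scrambled 1 and scrambled 2, 10 mg per kg, days 1 and 3) and from pups given saline daily from day 1 to day 13 (25 µl per g), with 4 libraries each. All day 14 pups were killed under isoflurane and their lungs were perfused through the heart, and the labels give neither sex nor litter. The labels do not say that each library is a different animal. The p-values therefore measure only how far these libraries spread, and some of that spread may be technical.

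At this age the mouse lung is building its alveoli. Septa grow into the air spaces, flat alveolar type 1 cells spread over them, type 2 cells make surfactant, and a capillary network of aerocytes and general capillary cells lines the walls. Pure water is hypotonic to body fluids, and where it serves as a solvent its own effect is the baseline against which a dissolved agent is judged. In whole-lung RNA, fewer cells of a type and less RNA per cell cannot be told apart.

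Each of the 8 libraries held 7918537 to 11417785 exon reads. Summed over 20 genes of alveolar type 2 cells, levels were 15540 to 23080 CPM (a gene's count scaled to the size of its library), and over 16 type 1 genes 7920 to 9677 CPM, so the markers of lung were present in every library. Xist, the transcript made by the silenced X chromosome of female cells, was high in 3 of the 4 untreated libraries and in none of the 4 water libraries. The 4 Y-linked genes Ddx3y, Eif2s3y, Kdm5d and Uty summed to 262.9 to 324.2 CPM in the water libraries, to 145.9 CPM in untreated replicate 1 and to 0 in the other untreated libraries. Water and untreated lungs therefore also differ in these sex-linked transcripts, and values from a fit with Xist as a covariate (the Xist fit) are given below. Water replicate 3 held transcripts of neighbouring tissues and was checked separately.

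Of 14179 genes tested, 7 passed an adjusted p of 0.05 in edgeR, which is 0.0494% of the genes. Nox4, Cemip, Sntg2 and Neurl3 fell (0.0282%), and Gimap3, Hmha1 and Cgn rose (0.0212%). The changes were small, with absolute log2 fold changes from 0.31 to 0.90, and the median standard error (SE) over all genes was 0.0931 on that scale. The median log2 fold change of all genes was 0.00, and 7250 genes lay above 0. At an unadjusted p under 0.05 there were 1147 genes (8.09%), 596 of them higher in water (4.2%) and 551 lower (3.89%). The CPM ranges of the groups did not overlap for 301 higher genes (2.12%) and 289 lower genes (2.04%), and without water replicate 3 for 536 (3.78%) and 500 (3.53%). Counts within the gene lists below stand against these shares, and the lists were chosen with earlier results of these data known. The 7 genes were picked by small p in the same libraries, so the gaps between their groups, given below, add no support.

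Nox4 encodes a NADPH oxidase that makes hydrogen peroxide and is known in fibroblasts, smooth muscle and endothelium. The files place it at 87246405 to 87398710 of chromosome 7, plus strand. It stood at 91.4, 97.3, 89.99 and 97.0 CPM in untreated replicates 1 to 4 and at 75.5, 74.5, 65.4 and 75.6 CPM in water replicates 1 to 4. The groups did not overlap, and water replicate 3 was the lowest library. Nox4 fell by 0.37 on the log2 scale (SE 0.06, edgeR adjusted p = 0.00699). It was the only gene of the 7 past the threshold in all 8 fits that left out 1 library. Without water replicate 3 its log2 fold change was -0.32 (edgeR adjusted p = 0.0461), and with Xist as a covariate -0.36 (adjusted p = 0.0488). In libraries that were not part of the comparison, Nox4 averaged 79.2 ± 2.46 CPM in scrambled 1, 88.3 ± 4.50 in scrambled 2 and 91.3 ± 1.84 after daily saline (mean ± SD of n = 4, as for each group mean below). The water mean of 72.7 ± 4.92 CPM was below all of these.

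The other NADPH oxidase genes did not pass the test. Of 13 tested subunits and regulators, 7 lay above 0 and 6 below, at a median of 0.01 (0.07 without water replicate 3 and -0.07 in the Xist fit). Cybb, the catalytic subunit of phagocytes, was at 0.42 on the log2 scale (SE 0.19, edgeR adjusted p = 0.600). Rac1, a small GTPase that serves the oxidase among many other roles, ran from 509 to 529 CPM in untreated and from 473 to 492 CPM in water lungs, without overlap, at -0.11 (SE 0.05, adjusted p = 0.615). Of 26 antioxidant enzymes 0 passed, 17 lay below 0, and the median was -0.05 (-0.08 with Xist as a covariate). Among these, the secreted superoxide dismutase Sod3 ran from 177 to 220 CPM in untreated and from 151 to 172 CPM in water lungs, at -0.29 (SE 0.09, adjusted p = 0.322).

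Cemip encodes a protein that binds hyaluronan and drives its breakdown. It lies at 83932857 to 84086692 of chromosome 7, minus strand. Untreated replicates 1 to 4 had 47.3, 46.03, 51.9 and 53.0 CPM, and water replicates 33.6, 32.4, 33.2 and 31.1 CPM. All 4 water libraries were close together and below every untreated library. Cemip fell by 0.60 (SE 0.10, edgeR adjusted p = 0.0166) and passed in 4 of the 8 fits that left out a library. The log2 fold change was -0.61 without water replicate 3 (adjusted p = 0.0587) and -0.51 with Xist as a covariate (adjusted p = 0.169). Scrambled 1 lungs had 34.8 ± 6.78 CPM, scrambled 2 lungs 38.99 ± 5.64 and daily saline lungs 49.6 ± 1.56, the last at the untreated mean of 49.6 ± 3.42.

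Of 20 tested genes for the synthesis, binding and breakdown of hyaluronan, 10 lay above and 10 below 0, and Cemip alone passed. Without water replicate 3, 7 lay above and 13 below, at a median of -0.09. Lyve1, a hyaluronan receptor of lymphatic vessels and some macrophages, stood at 236, 221, 216 and 175 CPM in untreated and 159, 162, 155 and 174 CPM in water lungs. The ranges did not overlap, though untreated replicate 4 lay next to water replicate 4. Its log2 fold change was -0.38 (SE 0.10, adjusted p = 0.267). Hapln1, which links hyaluronan to proteoglycans, had -0.39 (SE 0.16, adjusted p = 0.487), with overlapping groups.

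Sntg2 encodes gamma-2-syntrophin, an adaptor of the dystrophin complex, and lies at 30174480 to 30373392 of chromosome 12, minus strand. It was at 13.9, 17.3, 14.5 and 16.2 CPM in untreated and at 9.19, 11.8, 9.06 and 10.6 CPM in water lungs. The highest water library, replicate 2, stayed below the lowest untreated library, replicate 1. Sntg2 fell by 0.61 (SE 0.10, edgeR adjusted p = 0.0166) and passed in 5 of the 8 fits that left out a library. Its adjusted p was 0.0843 without water replicate 3 and 0.101 in the Xist fit. Its levels in the other groups lay between those means, from 11.8 ± 0.850 CPM in scrambled 1 to 14.1 ± 0.959 in daily saline lungs. When intron reads were counted with exon reads, the fold change was smaller, at -0.35 (adjusted p = 0.29). Of the 14 dystrophin-associated genes tested, 10 lay above 0, and Sntg2 was the only one past the threshold.

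Neurl3, a ubiquitin ligase gene of alveolar type 2 cells, lies at 36264602 to 36274674 of chromosome 1, minus strand. Untreated replicates had 26.2, 27.9, 27.5 and 18.0 CPM, and water replicates 12.3, 11.7, 15.3 and 14.0 CPM. Untreated replicate 4 stood well below the other untreated libraries but above all water libraries. Neurl3 fell by 0.90 (SE 0.16, edgeR adjusted p = 0.0360), the largest change of the 7, and passed in 1 of the 8 fits that left out a library. The adjusted p was 0.0822 without water replicate 3 and 0.191 in the Xist fit. Daily saline replicates 1 to 4 had 25.3, 26.7, 26.0 and 14.5 CPM, so replicate 4 was low there too. The oligonucleotide groups stood at 16.4 ± 2.42 and 14.8 ± 0.938 CPM. In scrambled 1, replicate 4 was the highest library, at 19.6 CPM. Of the other 19 type 2 genes none passed. Of all 20, 15 lay below 0, at a median of -0.10. Their sums were 19890 to 23080 CPM in untreated and 21430, 15540, 21030 and 22470 CPM in water replicates 1 to 4. Water replicate 2 alone lay below the untreated range.

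**Figure D1:**
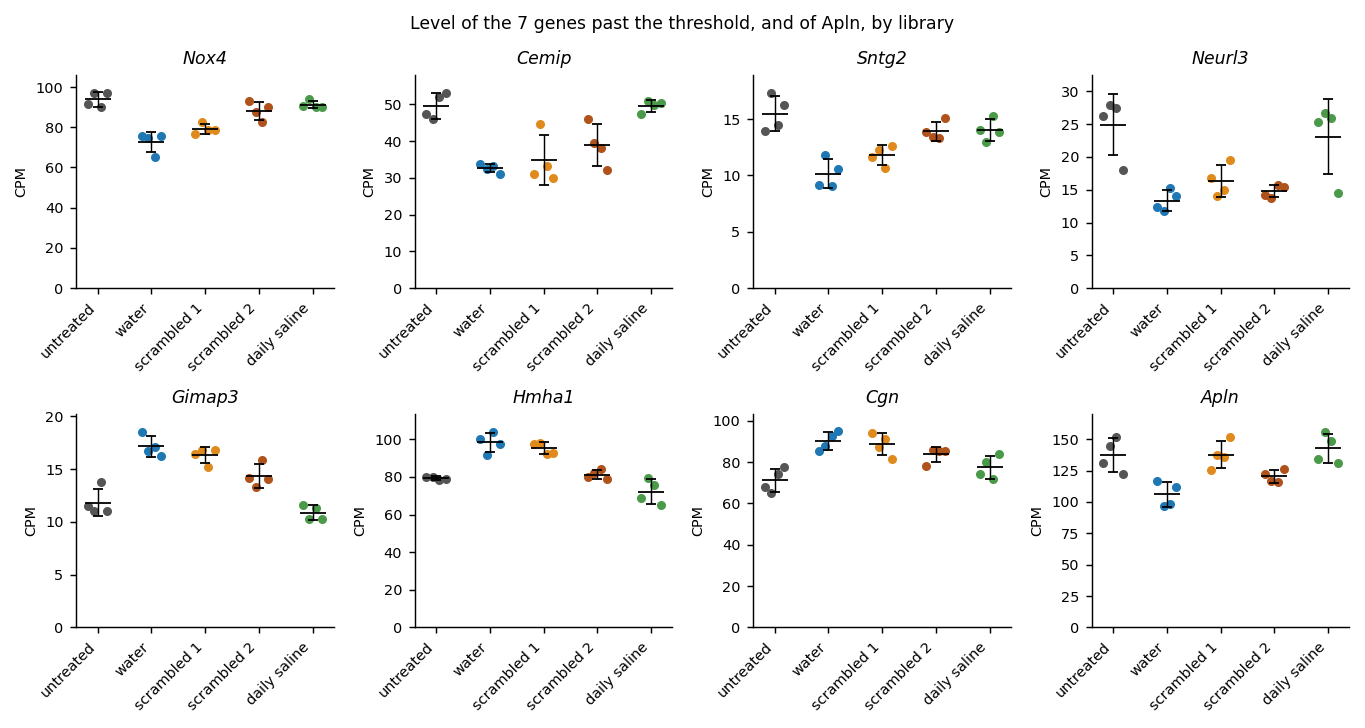
CPM of the 7 genes past the threshold, and of Apln, in the 20 day 14 libraries (points, replicates 1 to 4 from left to right) with mean and SD (bars), by group. Each of the 8 genes has water libraries apart from the untreated libraries, from Nox4 at 65.4 to 75.6 against 89.99 to 97.3 CPM to Hmha1 at 91.6 to 104 against 78.2 to 80.2 CPM. The genes were picked by small p in the same libraries, so these gaps add no support. Over all genes tested, the ranges did not overlap for 4.16%. The oligonucleotide groups mostly lie between them or near the water level.

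Gimap3 belongs to a family of GTPases that act in the survival of lymphocytes, some of which are also made by endothelium. It lies at 48764464 to 48770851 of chromosome 6, minus strand. It stood at 11.5, 11.0, 13.8 and 11.0 CPM in untreated and at 18.5, 16.8, 17.1 and 16.2 CPM in water lungs. Every water library was above every untreated library. Gimap3 rose by 0.53 (SE 0.09, edgeR adjusted p = 0.0184), with the same fold change of 0.53 without water replicate 3 (adjusted p = 0.0715). It passed in 2 of the 8 fits that left out a library, and with Xist as a covariate the adjusted p was 0.0995. Its level was 16.3 ± 0.780 CPM in scrambled 1, 14.3 ± 1.101 in scrambled 2 and 10.9 ± 0.707 in daily saline lungs. The other GIMAP genes did not pass. Of 8 tested, 4 lay above and 4 below 0, and Gimap4 had -0.18 (SE 0.06, adjusted p = 0.400) at 145 to 187 CPM.

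Hmha1 encodes a GTPase-activating protein of blood cells and lies at 80016672 to 80031471 of chromosome 10, plus strand. Untreated libraries had 80.0, 80.2, 78.2 and 78.7 CPM and water libraries 100.1, 91.6, 104 and 97.5 CPM. The untreated libraries were tightly grouped and every water library was higher. Hmha1 rose by 0.31 (SE 0.06, edgeR adjusted p = 0.0360), and by 0.36 with Xist as a covariate (adjusted p = 0.0488). The call was lost without water replicate 3 (log2 0.28, adjusted p = 0.109), and Hmha1 passed in 1 of the 8 fits that left out a library. Scrambled 1 lungs were near the water level at 95.3 ± 3.09 CPM, while scrambled 2 lungs had 81.2 ± 2.42 and daily saline lungs 72.2 ± 6.59.

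GTPase-activating proteins and related regulators of the blood cell cytoskeleton lay higher in water lungs along with Hmha1. Of the 13 tested, 12 had a log2 fold change above 0, the median was 0.30, and Hmha1 alone passed the adjusted threshold. At an unadjusted p under 0.05 there were 9 higher and 0 lower, and 6 had water libraries all above the untreated ones. Over all genes tested the shares were 4.2%, 3.89% and 2.12%. The list holds Hmha1 and Rasal3 and was chosen with earlier results of these data known, so its counts only describe it. Rasal3, a Ras GTPase-activating protein of T cells and neutrophils, was at 7.27, 7.21, 7.52 and 7.00 CPM in untreated and at 11.0, 13.0, 11.3 and 10.2 CPM in water lungs. The difference of 0.65 on the log2 scale (SE 0.13) missed the threshold (edgeR adjusted p = 0.0647) and was 0.79 with Xist as a covariate (adjusted p = 0.0488). Dock8, an exchange factor needed for migration of leukocytes, had 0.36 (SE 0.11, adjusted p = 0.322), and Arhgap30 had 0.40 (SE 0.12, adjusted p = 0.322).

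Cgn encodes cingulin of the tight junction and lies at 94760069 to 94787724 of chromosome 3, minus strand. Its levels were 67.7, 65.0, 74.1 and 77.6 CPM in untreated and 85.2, 87.9, 92.8 and 95.1 CPM in water lungs. The groups did not overlap. Cgn rose by 0.34 (SE 0.07, edgeR adjusted p = 0.0360), and 87.6% of its reads were unique. The call was lost without water replicate 3 (log2 0.33, adjusted p = 0.109) and with Xist as a covariate (log2 0.36, adjusted p = 0.139), and Cgn passed in 1 of the 8 fits that left out a library. Of 24 genes of tight and adherens junctions 12 lay above 0, 12 below, and no other passed. Cldn18, the claudin of alveolar epithelium, had 0.17 (SE 0.07), Cldn4 of epithelium 0.56 (SE 0.23) and the endothelial Jam2 -0.24 (SE 0.07), at adjusted p values of 0.507, 0.499 and 0.322.

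With Xist as a covariate 3 genes passed, Nox4, Hmha1 and Rasal3, and the log2 fold changes of the 7 genes lay between -0.89 and 0.55. Without water replicate 3 and with Xist together, edgeR passed 0 genes, with 1557 at an unadjusted p under 0.05. DESeq2 was not run with those settings. Fitted to all 20 day 14 libraries without the covariate, it passed 23.

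Next in order of p came 18 genes at adjusted p values of 0.0647 to 0.149, 11 lower and 7 higher in water. In 17 of them the groups did not overlap, against 4.16% of all genes. They were picked by small p in the same libraries, so this count adds no support. Stmn2, a microtubule protein of neurons, stood at 95.7, 92.3, 95.8 and 87.8 CPM in untreated and at 76.0, 74.4, 62.8 and 79.2 CPM in water lungs, at -0.35 (SE 0.07, adjusted p = 0.0968). The synaptic vesicle protein Syn2 had -0.42 (SE 0.09), the calcium sensor Syt7 -0.41 (SE 0.09), the Rab27 effector Sytl2 -0.31 (SE 0.07) and the calcium channel subunit Cacnb2 -0.32 (SE 0.07). Above 0 were the nucleoside transporter Slc28a2 at 0.82 (SE 0.17), with 73.1% unique reads, the signalling protein Wnt3a at 0.42 (SE 0.09), the repressor Bcl6 at 0.45 (SE 0.11) and Tmem63b, a stretch-activated ion channel, at 0.26 (SE 0.06).

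The largest differences among these genes had the most spread. Cyp26b1, which breaks down retinoic acid, stood at 47.9, 56.7, 68.2 and 31.6 CPM in untreated and at 23.9, 21.6, 22.5 and 25.1 CPM in water lungs. Its log2 fold change was -1.14 (SE 0.24, edgeR adjusted p = 0.149), and untreated replicate 4 was the closest to the water level. Bdkrb2, the bradykinin B2 receptor, was at 8.40, 9.44, 8.38 and 5.004 CPM in untreated and at 2.83, 4.14, 2.76 and 5.13 CPM in water lungs, with an overlap of untreated replicate 4 and water replicate 4. It had -1.08 (SE 0.24, adjusted p = 0.121). In daily saline lungs replicate 4 was also the lowest library for both genes, at 35.0 CPM for Cyp26b1 and 4.45 CPM for Bdkrb2. Lrat, which esterifies retinol, had -1.31 (SE 0.38, adjusted p = 0.326), but only 2.29% of its reads were unique. The 16 genes of the retinoic acid pathway had a median of -0.05 (-0.12 without water replicate 3), and 0 of them passed.

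**Figure D2:**
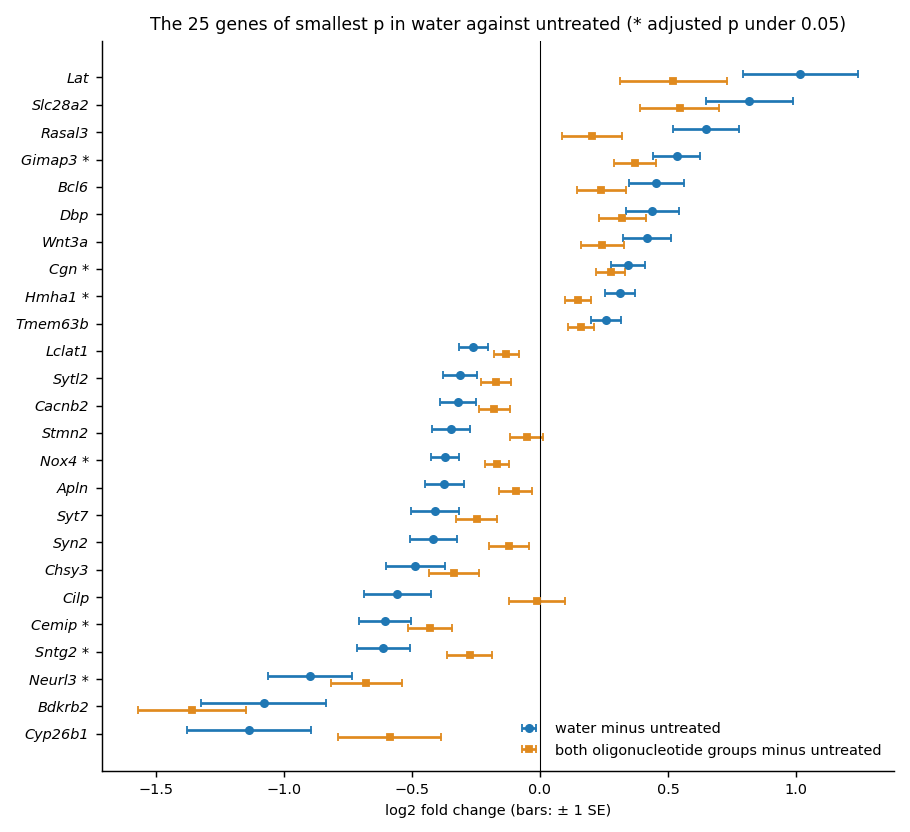
Log2 fold change with 1 SE for the 25 genes of smallest p in water against untreated lungs (circles) and, for the same genes, in both oligonucleotide groups against the same untreated libraries (squares). The asterisk marks the 7 genes past the adjusted threshold. Both sets share the untreated libraries. The water values run from -1.14 for Cyp26b1 to 1.02 for Lat, and Bdkrb2 alone lies farther from 0 in the oligonucleotide groups. Picking genes by small p in water favours larger values there, so neither the shared direction nor the difference in size is a result.

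The oligonucleotide groups received the same water with a scrambled oligonucleotide in it, and their comparison with untreated lungs shares the 4 untreated libraries. There, 5 genes passed (0.0353% of 14179), and none of them was among the 7. Bdkrb2 fell by 1.36 in the oligonucleotide groups (SE 0.21, edgeR adjusted p = 0.00732), where the libraries held 1.94 to 3.98 CPM. H2-Ob, an antigen presentation gene of B cells, rose by 0.52 (SE 0.09, adjusted p = 0.0237), against 0.37 in water lungs (adjusted p = 0.294). Prss35 fell by 0.44 and Itih5 by 0.37, where water lungs had -0.26 and -0.10. For the 7 genes, the oligonucleotide groups had -0.17 for Nox4, -0.43 for Cemip, -0.27 for Sntg2, -0.68 for Neurl3, 0.37 for Gimap3, 0.15 for Hmha1 and 0.28 for Cgn, at adjusted p values of 0.0604 or more. The 7 were picked by small p in water, so no comparison of size is drawn.

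Genes of lymphocytes stood higher in water lungs as groups, while no member passed the adjusted threshold. All 14 B cell genes tested lay above 0, at a median of 0.30, with 6 at an unadjusted p under 0.05. Without water replicate 3 the B cell median was 0.35, and with Xist as a covariate 0.32. Cd37, a tetraspanin of mature B cells, stood at 20.2, 20.6, 18.9 and 18.9 CPM in untreated and at 26.0, 23.9, 27.1 and 24.7 CPM in water lungs. The groups were clear of each other, at 0.37 (SE 0.10, adjusted p = 0.267). The B cell kinase Blk had 0.56 (SE 0.16, adjusted p = 0.286, with 75.9% unique reads) and the cytokine Ltb 0.44 (SE 0.13). Summed over the list, B cell genes reached 195.4 to 236.8 CPM in untreated and 230.7 to 295 CPM in water lungs, and water replicate 3 was the lowest water library.

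Of 21 T and natural killer cell genes, 19 lay above 0, and the median was 0.43. It was 0.34 without water replicate 3. The adaptor Lat was at 3.14, 3.39, 2.36 and 3.45 CPM in untreated and at 5.96, 4.34, 9.32 and 5.24 CPM in water lungs. Replicate 3 was the highest by a wide margin, though the other water libraries were also above the untreated ones. Its log2 fold change was 1.02 (SE 0.23, adjusted p = 0.119) and 0.74 without replicate 3. Cd4 had 0.69 (SE 0.21), the kinase Lck 0.58 (SE 0.18) and the adaptor Skap1 0.73 (SE 0.25), at adjusted p values of 0.322 to 0.391. Replicate 3 also had the highest sum of thymus genes, at 386.1 CPM against 337.8 to 346.1 in the other water libraries, and of T and natural killer genes, at 119.5 against 77.65 to 92.14 CPM. Much of the thymus sum was Rmnd5a, at 179.3 CPM in replicate 3 and 178.5 to 199.2 CPM in the other water libraries. Rag1 stood at 14.75 against 0.394 to 2.93 CPM and Cd8a at 12.2 against 2.76 to 5.25 CPM. The part of thymus tissue in these values was not tested.

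Among myeloid cells, 14 of 19 genes of monocytes and interstitial macrophages lay above 0, at a median of 0.24. Csf1r, the receptor of macrophage growth factor, ran from 58.6 to 75.5 CPM in untreated and from 78.2 to 99.0 CPM in water lungs. Every water library exceeded every untreated one, at 0.33 (SE 0.11, adjusted p = 0.356). Lyve1, also in this list and with the smallest p in it, went the other way at -0.38 (SE 0.10), without overlap. The monocyte genes Ccr2 and Ly6c2 had 0.07 and -0.07. The sums of the list overlapped, at 1432 to 1582 CPM in untreated and 1465 to 1596 CPM in water lungs. Alveolar macrophage genes had a median of 0.27, of 0.07 without water replicate 3 and of 0.14 in the Xist fit. Of 15 neutrophil genes 10 lay below 0, at a median of -0.18. With Xist as a covariate the neutrophil direction turned, to 8 above and 7 below 0 at a median of 0.06.

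**Figure D3:**
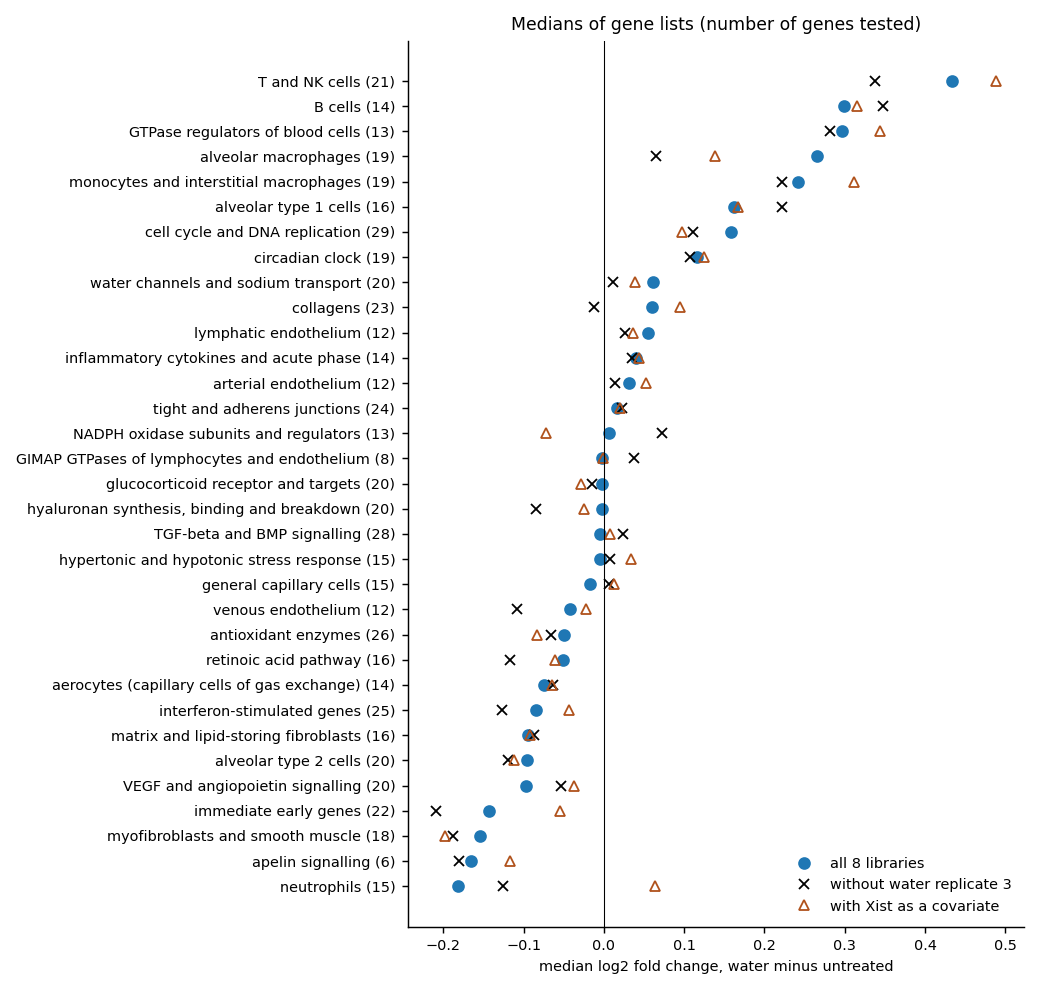
Median log2 fold change of water against untreated lungs for 33 of the gene lists, with all 8 libraries (circles), without water replicate 3 (crosses) and with Xist as a covariate (triangles). The number of genes tested stands beside each name. T and natural killer cell genes are highest at 0.43 and neutrophil genes lowest at -0.18. Among these 33 lists, the alveolar macrophage median moves most without replicate 3, from 0.27 to 0.07, and the neutrophil median moves most with Xist, to 0.06.

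Alveolar type 1 genes mostly lay above 0. Of 16, 14 did, at a median of 0.16 (0.22 without water replicate 3). At an unadjusted p under 0.05 there were 8 higher and 1 lower, against 4.2% and 3.89% of all genes tested. Of the 16, 0 passed the adjusted threshold. Spock2, a proteoglycan gene of these cells, stood at 298, 317, 340 and 329 CPM in untreated and at 392, 380, 374 and 434 CPM in water lungs. All water libraries were higher, at 0.30 (SE 0.09, adjusted p = 0.326). The mean was 321 ± 18.0 CPM in untreated lungs, and 397 ± 54.6, 436 ± 25.6 and 399.7 ± 56.7 CPM in scrambled 1, scrambled 2 and daily saline lungs. The anchoring protein Akap5 had 0.35 (SE 0.11), the receptor Ager 0.24 (SE 0.10) and Lmo7 0.30 (SE 0.12). The lower gene was Cav1, at -0.12 (SE 0.06, adjusted p = 0.615), with 3.3% unique reads and no overlap of the groups. Hopx and Emp2 had 0.02 each, Pdpn 0.06 and Igfbp2 -0.0003. The list summed to 7920 to 8452 CPM in untreated and to 9155, 8988, 8249 and 9677 CPM in water replicates 1 to 4. Water replicate 3 lay within the untreated range.

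Of the collagens, 18 of 23 lay above 0, and none passed. The 3 with an unadjusted p under 0.05 were chains of collagen IV, a basement membrane protein. Col4a4 ran from 321 to 380 CPM in untreated and from 393 to 506 CPM in water lungs, and Col4a5 from 237 to 280 and from 297 to 350 CPM. Neither pair of ranges overlapped. The log2 fold changes were 0.38 (SE 0.12, adjusted p = 0.356) for Col4a4, 0.33 (SE 0.11, adjusted p = 0.367) for Col4a5 and 0.38 (SE 0.15, adjusted p = 0.476) for Col4a3. Only 38.5% of the Col4a3 reads were unique. The other chains had 0.04 for Col4a1, 0.07 for Col4a2 and 0.18 for Col4a6. Over all 23 collagens the median was 0.06, -0.01 without water replicate 3, where 10 lay above 0, and 0.09 with Xist as a covariate.

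The lists of vessel cells differed in side. Arterial and lymphatic endothelium each had 7 of 12 genes above 0, at medians of 0.03 and 0.06, and venous endothelium had 4 of 12 above, at -0.04. Of 14 aerocyte genes 11 were below 0, at a median of -0.08, with 4 lower and 0 higher at an unadjusted p under 0.05. Apln, the peptide ligand that aerocytes make, stood at 131, 145, 151 and 122 CPM in untreated and at 117, 97.1, 98.2 and 112 CPM in water lungs. Water replicate 1 came close to untreated replicate 4 without reaching it. Apln had -0.37 (SE 0.08, edgeR adjusted p = 0.0647) and passed in 1 of 8 fits that left out a library. The means were 137 ± 13.3 CPM in untreated and 106 ± 9.91 in water lungs. Of the groups given the same solvent, scrambled 1 had 138 ± 10.8 CPM and scrambled 2 had 120 ± 4.90. Daily saline lungs had 143 ± 11.7 CPM.

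Aplnr, the receptor of apelin on general capillary cells, stood at 286, 300.1, 301 and 292 CPM in untreated and at 239.9, 243, 257 and 257 CPM in water lungs. The groups did not overlap, at -0.24 (SE 0.06, adjusted p = 0.258). Ednrb, an endothelin receptor of aerocytes, had -0.22 (SE 0.07, adjusted p = 0.314), though only 10.9% of its reads were unique. Tmem100 and Kit of general capillary cells had -0.17 each (SE 0.06 and 0.07), and 10 of the 15 general capillary genes lay below 0. Their median was -0.02. It was 0.01, with 8 above and 7 below 0, in the fit without water replicate 3 and again in the Xist fit.

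Of 20 genes of VEGF and angiopoietin signalling 17 lay below 0, at a median of -0.10 (-0.05 without water replicate 3 and -0.04 in the Xist fit), and 5 lower and 1 higher had an unadjusted p under 0.05. Vegfc, a growth factor of lymphatic vessels, had -0.34 (SE 0.12), Figf, which encodes VEGF-D, -0.19 (SE 0.07), and the vasodilator peptide Adm -0.36 (SE 0.12). Vegfa, made by type 1 cells, was on the other side of 0 at 0.20 (SE 0.08). All 4 were at adjusted p values of 0.376 to 0.506. The growth factor Tgfb3 ran from 163 to 191 CPM in untreated and from 141 to 163 CPM in water lungs, at -0.23 (SE 0.06, adjusted p = 0.149), and its endothelial relative in signalling, the receptor Acvrl1, had -0.22 (SE 0.07). Over 28 genes of TGF-beta and BMP signalling 14 lay above and 14 below 0.

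**Figure D4:**
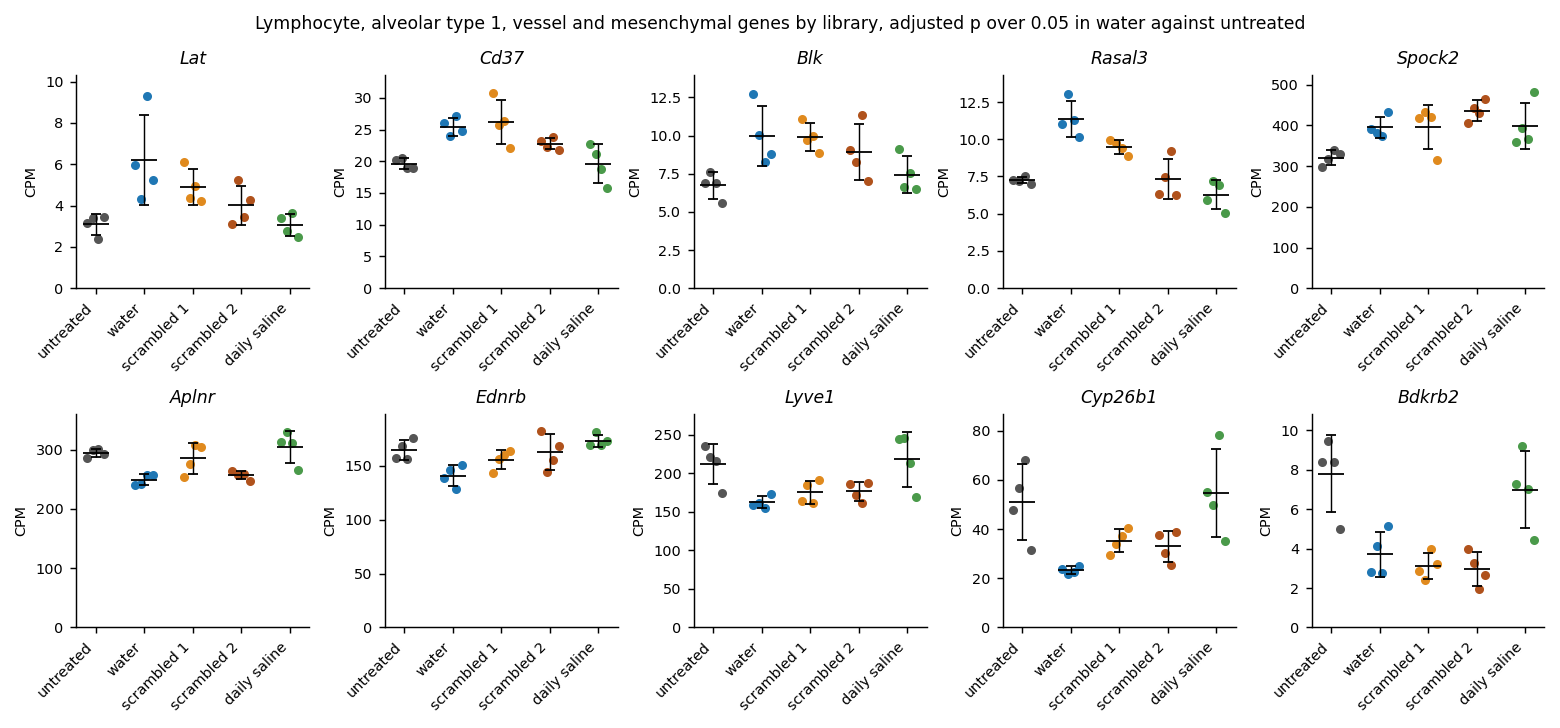
CPM of 10 genes of lymphocytes (Lat, Cd37, Blk, Rasal3), type 1 cells (Spock2), vessels (Aplnr, Ednrb, Lyve1) and mesenchyme (Cyp26b1, Bdkrb2) in the 20 day 14 libraries (points) with mean and SD (bars). None passed the adjusted threshold in water against untreated lungs. Cyp26b1 spreads from 31.6 to 68.2 CPM in untreated and from 21.6 to 25.1 CPM in water lungs.

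Genes of fibroblasts and smooth muscle lay mostly below 0. Of 18 genes of myofibroblasts and smooth muscle 14 did, at a median of -0.15, and of 16 genes of matrix and lipid-storing fibroblasts 13 did, at -0.10. Pericyte genes, also mesenchymal, were near 0. Of 14, 6 lay above and 8 below 0, at a median of -0.03. In the Xist fit 8 lay above and 6 below, at 0.02. Aspn, a small matrix proteoglycan, had -0.27 (SE 0.08, adjusted p = 0.286, with 26.35% unique reads), and Mfap4, an elastic fibre protein, -0.22 (SE 0.09, adjusted p = 0.487). Cell cycle genes lay on the other side, with 28 of 29 above 0 at a median of 0.16 (0.11 without water replicate 3 and 0.10 in the Xist fit). Their sums did not separate the groups, at 834.6 to 909.7 CPM in untreated and 1057, 813.4, 1005 and 873.7 CPM in water replicates 1 to 4. Only water replicates 1 and 3 exceeded every untreated library, and water replicate 2 was below them all. The mitotic cyclin Ccnb1 ran from 9.02 to 9.78 CPM in untreated and from 11.1 to 15.9 CPM in water lungs, at 0.49 (SE 0.15, adjusted p = 0.326), though only 50.6% of its reads were unique.

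Of 19 circadian clock genes 12 lay above and 7 below 0, at a median of 0.12, with 4 higher and 2 lower at an unadjusted p under 0.05 and 0 past the adjusted threshold. Arntl, the activator of the clock, stood at 31.5, 31.9, 32.0 and 31.7 CPM in untreated and at 27.4, 28.4, 27.5 and 27.02 CPM in water lungs. Dbp, an output gene of the clock, stood at 9.91, 13.1, 12.9 and 12.4 CPM against 16.8, 15.96, 17.2 and 15.6 CPM. Neither gene's groups overlapped. Arntl had -0.20 (SE 0.07, adjusted p = 0.364) and Dbp 0.44 (SE 0.10, adjusted p = 0.149, with 77.1% unique reads). Tef, also under the clock, had 0.18 (SE 0.06). The hour of death is not given in the labels.

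Pathways that a water injection could be asked about held no gene past the threshold. Of 15 genes of the response to hypertonic and hypotonic stress, 7 lay above and 8 below 0, from -0.13 to 0.25, and 0 had an unadjusted p under 0.05. Among 20 genes of water channels and sodium transport the median was 0.06 (0.01 without water replicate 3 and 0.04 in the Xist fit). The sodium channel subunit Scnn1b ran from 41.8 to 46.9 CPM in untreated and from 46.6 to 61.7 CPM in water lungs, at 0.31 (SE 0.08, adjusted p = 0.278), and Scnn1g had 0.23 (SE 0.10). Of 14 inflammatory cytokine and acute phase genes 0 had an unadjusted p under 0.05, at a median of 0.04. Of 20 glucocorticoid genes 10 lay above and 10 below 0. In that list the metal-binding Mt2 had -0.59 (SE 0.18, adjusted p = 0.322) and Fkbp5 0.29 (SE 0.13, adjusted p = 0.580).

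Of 22 immediate early genes 18 lay below 0, at a median of -0.14. With Xist as a covariate 14 did, at -0.05. The transcription factor Klf4 ran from 121 to 182 CPM in untreated and from 103 to 117 CPM in water lungs, at -0.42 (SE 0.13, adjusted p = 0.356). Of 25 interferon-stimulated genes 21 lay below 0, at a median of -0.08 (-0.13 without water replicate 3). With Xist as a covariate 14 lay below and 11 above, at -0.04. Among them were Oasl2 at -0.24 (SE 0.11) and Ifi35 at -0.22 (SE 0.09). None of either list passed.

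Water replicate 3 held transcripts of muscle, fat and cartilage that were at low levels in the other water libraries. By a rule of at least 5 times every other water library and at least 50 reads, 46 genes stood apart in it, and 0 did by the same rule in each of the other 3 water libraries. Of the 46, 15 belonged to the list of skeletal muscle, 12 to brown and white fat, 3 to cartilage and 2 to thymus. Acta1, the actin of skeletal muscle, stood at 86.6 CPM in it and at 0 to 0.209 CPM in the other water libraries, and the muscle myosin Myh1 at 73.1 against 0 to 0.394 CPM. Ucp1, the uncoupling protein of brown fat, stood at 167 against 0.105 to 5.22 CPM, and the cartilage collagen Col2a1 at 62.3 against 0.707 to 7.79 CPM.

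The summed levels show the same library. Skeletal muscle genes summed to 762.9 CPM in water replicate 3 and to 195.5 to 225.1 in the other water libraries, with 228 to 257.9 in untreated lungs. Outside water replicate 3, Des, which is also in the smooth muscle list, held 130 to 175 CPM of these sums. Acta1 was at 0 to 0.43 CPM in those libraries. Fat genes summed to 858.7 against 149.3 to 172.3 CPM. Untreated replicate 1 had 297.8 CPM of fat genes, with Ucp1 at 24.7 CPM, where the other untreated libraries had 142.9 to 182.3 CPM. Over all 8 libraries the medians were 1.19 for skeletal muscle, 1.63 for fat and 1.08 for cartilage. Without water replicate 3 they were -0.29, -0.41 and 0.11. In none of these lists did any gene pass the threshold. Heart muscle genes had a median of -0.20 and were high in untreated replicate 1 (778.4 CPM) and water replicate 3 (703 CPM), against 236 to 469.4 CPM in the other 6 libraries.

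**Figure D5:**
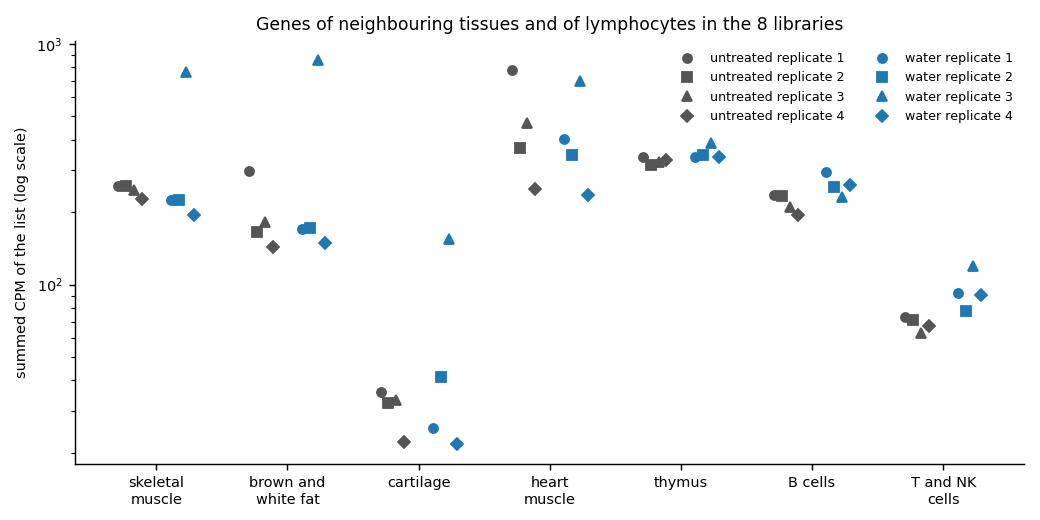
Summed CPM (log scale) of lists of genes for neighbouring tissues and lymphocytes in the 4 untreated and 4 water libraries, each replicate with its own symbol. Water replicate 3 stands at 762.9 CPM for skeletal muscle and 858.7 CPM for fat, above every other library, while its B cell sum of 230.7 CPM is the lowest of the water group.

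The share of intronic reads in gene reads was 14.1 ± 1.42% in water and 12.7 ± 1.95% in untreated lungs. The difference of 1.35 percentage points was within the spread of the replicates (exact permutation test, two-sided p = 0.314, where 4 against 4 cannot go below 0.0286).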

How the data were processed

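RNA from whole lung was sequenced as stranded polyA libraries, per the labels' protocols, and bcl2fastq 2.0 is named in the submitters' processing notes. No aligner, genome build or use of strand is given in the sources used here. Counts per gene, made by the authors, were deposited, for 46165 records per library. Total exon counts were used, which include reads that map to several places. RefSeq's GRCm38.p6 table holds 43003 of the gene IDs, and 97.4% of them start there within 5 kb of the deposited start. Coordinates are those of the files.

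The 20 day 14 libraries (5 groups of 4, sharing 1 estimate of the spread) were fitted with edgeR 4.0.16 in R 4.3.3 (filterByExpr with a minimum count of 10, TMM scaling, quasi-likelihood F tests with robust shrinkage), and water was contrasted with untreated. Benjamini-Hochberg adjustment ran over 14179 genes. The 20 libraries held 7918537 to 11417785 exon reads. CPM values are TMM-scaled, and each SE was derived from the fold change and its F statistic (size on the log2 scale over the root of F). The replicate pairs had a chi-square per gene of 2.92 to 11.2, so no library was counted again. The fitting script was tested on simulated data.

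Named genes are those past the threshold, then those of next smallest p with a mean of at least 1 CPM up to 25 in all, leaving out predicted and clone names, Xist and Y-linked genes, and up to 4 members of smallest p in each list described. In neighbouring tissue lists the 3 members with the highest level in a library were added. The comparison, the 59 gene lists and these rules were chosen with earlier results of these data known. Alternatives were DESeq2 1.42.0, limma-voom (limma 3.58.1), RLE scaling, other filters, unique exon reads, all gene reads, only the 8 libraries, Xist (log2 of CPM + 1 from gene reads) or intronic share as a covariate, X and Y genes left out, the replicate number as a block and leave-one-out fits. The 12 day 6 libraries were not used here, and some genes that the rules select are left out of the text.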

Additional observations from a re-analysis of the deposited data

Results flagged for a closer look

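In groups of 4 libraries, a library was marked where its gap to the nearest other took up more of the group's range than Dixon's 95% limit allows. Of 205 such groups 9 were marked, and chance marks about 1 in 20. For Nox4, water replicate 3 stood at 65.4 CPM, below 74.5 to 75.6 in the other water libraries. For Neurl3, untreated replicate 4 stood at 18.0 CPM, below 26.2 to 27.9. Water replicate 3 was high for Hapln1, at 10.7 CPM against 8.17 to 8.38, and for the complement gene C1qc of macrophages, at 20.1 CPM against 10.9 to 12.1. Untreated replicate 3 was high for Scnn1b, at 46.9 CPM against 41.8 to 42.3. Water replicate 2 had 90.58% unique exon reads, where the other water libraries had 90.3% to 90.33%. The summed levels of water replicate 3 were marked for skeletal muscle at 762.9 CPM, for brown and white fat at 858.7 CPM and for cartilage at 155.2 CPM, the last against 21.7 to 41.3 CPM. The part of any cause in these values was not tested.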

How the results depend on the processing

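The count of 7 genes was 23 with DESeq2, 3 with Xist as a covariate, 11 with intronic share in that place, 1 with only the 8 libraries and 0 without water replicate 3 and with Xist. Leaving out 1 library at a time gave 1 to 9 genes, with 1 without water replicate 1, 2 without water replicate 3 or untreated replicate 2, 3 without untreated replicate 3 or water replicate 2, and 4 without untreated replicate 1. All other alternatives gave 6 to 8. The count of 5 genes for the oligonucleotide groups was 10 with no filter, 9 with unique exon reads, 36 with DESeq2, 24 with limma-voom, 10 with the intronic share as a covariate and 8 with only the groups compared, and 0 to 15 with 1 library left out (0 without untreated replicate 2, where 815 genes had an unadjusted edgeR p under 0.05, 1 without untreated replicate 1, 2 without scrambled 1 replicate 1 or scrambled 2 replicate 2, 3 without scrambled 2 replicate 3, 10 without scrambled 1 replicate 2, 11 without scrambled 2 replicate 4 and 15 without scrambled 1 replicate 4). With the replicate number as a block the counts were 6 for water and 12 for the oligonucleotide groups. Deviations of same-numbered water and untreated libraries correlated at -0.167 to 0.496, the highest for replicate 4, and 2 of 4 correlated best with their own number. What same-numbered libraries share beyond the number is not given in the labels and was not tested. The genes past the threshold kept their direction in all 147 alternatives and missed the threshold in 59 of them. Of the 91 genes followed through the alternatives, Xaf1 changed sign, to 0.01 when all gene reads were counted. Of 74 alternatives of list medians 7 moved by more than the spread between libraries. The causes were not tested.

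The difference in intronic share kept its direction in all its alternatives. The median SE of 0.0931 limits what 4 libraries a group can show. No water library is high in Xist, so the Xist fit takes its slope from the other groups, and untreated replicate 1 is the only untreated library low in Xist.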

Other observations

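The 4 Y-linked genes were present in 12 of the 20 day 14 libraries, and 2 of these stood apart. Untreated replicate 1 and daily saline replicate 1 had a sum of 145.9 and 144.3 CPM, where the other 10 had 262.9 to 335.9 CPM. Ddx3y was at 74.8 and 73.2 CPM in the pair against 124.6 to 163.1 CPM, Eif2s3y at 28.0 and 31.8 against 51.5 to 78.5, Kdm5d at 24.1 and 20.6 against 41.8 to 52.3, and Uty at 19.1 and 18.7 against 33.5 to 47.1. Xist had 5 reads in each of the pair and 1947 to 6602 reads in the 8 libraries high in it. The X-linked copies Kdm6a, Eif2s3x and Ddx3x in the pair were within the range of the other 10 libraries with Y-linked reads (Kdm6a at 63.3 and 59.3 against 56.9 to 72.0 CPM), and Kdm5c at 114 and 109 CPM was near its lower end of 112. In the libraries high in Xist, Kdm6a was at 92.1 to 112 CPM. Untreated replicate 1 is the library on which the comparison within low Xist rests, and no cause of these levels was tested.

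A few secretory and epithelial genes varied between libraries of each group without following the treatment. Retnla was at 492, 155, 364 and 60.5 CPM in untreated replicates 1 to 4 and at 69.4, 65.2, 394 and 56.6 CPM in water replicates. Clca1, a protein of mucus-producing cells, was at 261, 53.8, 350 and 1.11 CPM in untreated and at 7.58, 24.3, 380 and 2.93 CPM in water libraries. Chil4 was at 96.1, 17.2, 209 and 1.22 CPM in untreated and at 0.505, 3.35, 117 and 0.419 CPM in water libraries. Untreated replicates 1 and 3 and water replicate 3 were the highest libraries for all 3 genes. They were named after their values were seen, from the 46 genes that stand apart in water replicate 3.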
